A study of Homo sapiens with 10 samples.

Results

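Making a ribosome begins in the nucleolus, where RNA polymerase I (Pol I) transcribes the ribosomal DNA into one long precursor. Small nucleolar ribonucleoproteins (snoRNPs) then modify that precursor, and large assemblies of proteins cut it and fold it into the small and the large ribosomal subunit. The process takes up much of the biosynthetic effort of a growing cell, and in cancer cells it is a known output of MYC and mTOR signalling. The 32 genes described here encode proteins of this process and were chosen by symbol, out of 60558 genes in the tables. They comprise 6 genes of Pol I and its initiation factors, 7 core proteins of the snoRNPs, 3 abundant nucleolar proteins, 9 factors of the small subunit and 7 factors of the large subunit.

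The RNA came from PC3 cells, labelled as wild type, a human line that was set up from a prostate cancer metastasis in bone. One group of 5 libraries was made after 3 days of coculture with human bone marrow adipocytes (cocultivated), and the other 5 libraries are labelled non-cocultivated. Batch numbers 1 to 5 are each shared by 1 library of each group, and the replicate number used below is the batch number. All cells are of 1 line, the labels do not say how the cancer cells were parted from the adipocytes, and separate cultures are not stated for the libraries of either group. The p-values therefore measure the spread between these libraries, which may be technical.

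Each library held 39074949 to 51515712 expected counts, the reads that the RSEM program assigned to genes. Levels are given as CPM, the counts of a gene brought to the same total in each library, with that total scaled by TMM, a method that takes the scale from the bulk of genes, and differences as log2 fold changes, cocultivated minus non-cocultivated, with their standard error (SE). A gene is called when its p from edgeR's quasi-likelihood (QL) test, adjusted by Benjamini-Hochberg over 15690 genes, is under 0.05. On the second principal component the batch 1 libraries stood at 15.3 and 19.9 and the other 8 at -8.67 to 2.47. PC3 markers were present in both groups, with a summed level of 3436 to 3862 CPM in non-cocultivated and 4238 to 4497 CPM in cocultivated libraries. PLAU carried the higher sum, at 928 to 1140.0 CPM and 1843 to 2113 CPM, and VIM overlapped between the groups. The other 5 markers of the 7, EPCAM, KRT8, KRT18, KRT19 and CDH1, were lower in all cocultivated libraries than in all others, KRT8 at 53.4 to 63.9 CPM against 107 to 118 CPM.

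After coculture 9 of the 32 transcripts fell and 3 rose, and 20 did not pass the test. Among all genes tested, 33.6% were called, against 12 of the 32. By direction, 15.8% of all genes fell and 17.9% rose, while among the 32 the shares were 28.1% and 9.38%. The log2 fold change was negative for 26 of the 32, with a median of -0.09, beside a median of -0.01 over all genes tested. The changes were small, running from -0.24 for NOLC1 to 0.41 for NOP10, with SEs of 0.037 to 0.11. Whether fewer cells made a transcript or each cell held less of it cannot be told apart in bulk RNA.

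The count of genes that fell depended on the fit, while the sign of the median did not. With the batch number as a block 16 of the 32 fell and 4 rose, beside 22.2% and 22.2% of all genes. With library totals in place of TMM 18 fell and 2 rose, beside 22.7% and 14.1%. That scaling also turned the balance over all genes, from 2801 higher and 2478 lower to 2216 higher and 3555 lower. Without both libraries of batch 1, 13 fell and 3 rose, beside 16.9% and 19.4%. Leaving out 1 library gave 4 to 10 that fell. The count was 4 (12.5% of the 32) without replicate 2 of either group, where 13.0% of all genes fell without the cocultivated and 13.2% without the non-cocultivated one. It was 5 (15.6%) without cocultivated replicate 3 or 5 or without non-cocultivated replicate 3 or 4, where 12.9% to 14.2% of all genes fell. In these 6 fits the share of the 32 that fell was near that of all genes. On log2(TPM + 0.1) and log2(TPM + 0.5), TPM being the length-corrected share of a library's transcripts, limma gave 20 that fell and 2 that rose. Beside them 18.8% and 18.9% of all genes fell, 11.0% rose by either, and 29.9% were called in all. In these fits and in the others tried, the median of the 32 lay between -0.17 and -0.08, and that of all genes between -0.08 and -0.005.

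Taken batch by batch, the median of the 32 was -0.07, -0.07, -0.09, -0.06 and -0.17 in batches 1 to 5. Over all genes tested the medians were -0.0147, -0.0137, -0.00166, -0.00195 and 0.00363. In the same batches 25, 23, 24, 25 and 26 of the 32 were negative. Batch 5 thus had the most negative median of the 32, and their median had the same sign in all 5 batches. In every one of the 5 batches 17 of the 32 genes were lower and 4 were higher after coculture. The shares of all genes that were negative in a batch, or went 1 way in all 5, were not computed. Cocultivated replicate 1 was the lowest of its group for 15 of the 32 genes and replicate 5 for 12. Among the non-cocultivated libraries replicate 1 was the lowest for 20. How often a library was the lowest over all genes was not counted, so these ranks are not shown to be particular to the 32.

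**Figure D1:**
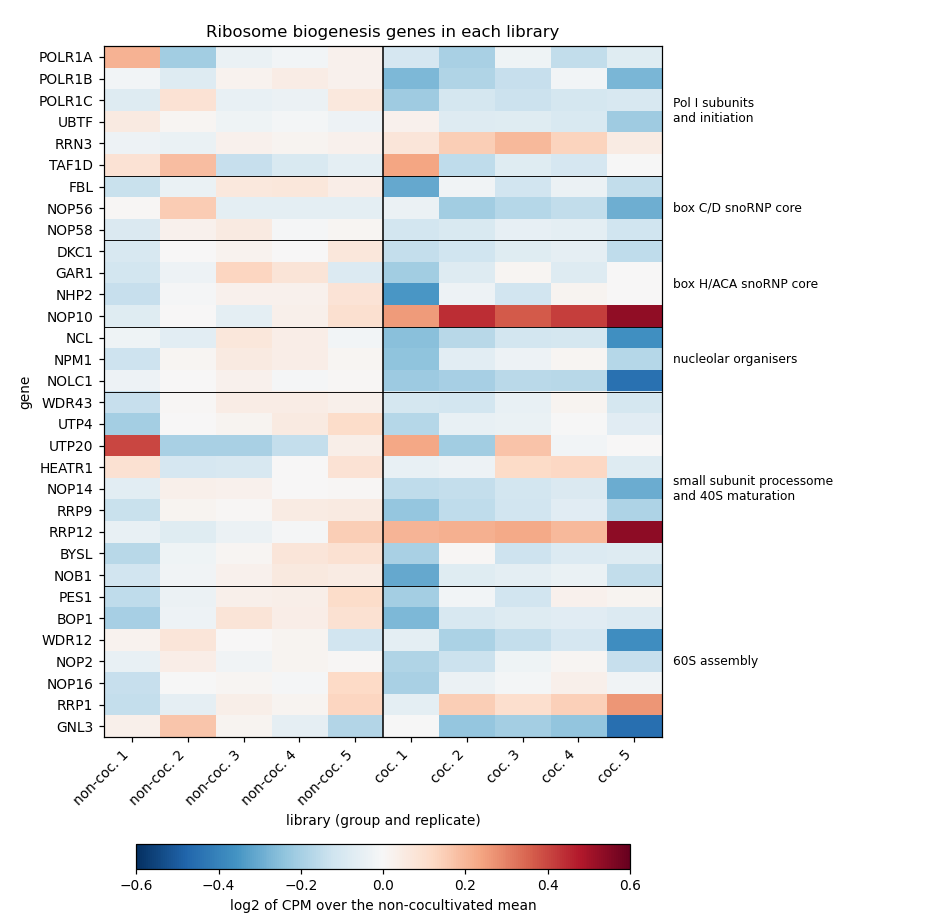
Each row is 1 of the 32 genes, grouped by role, and each column 1 library (non-coc., non-cocultivated; coc., cocultivated; numbers are replicates). Colour is the log2 of the CPM over the mean of the 5 non-cocultivated libraries, with blue lower and red higher; NOP10, RRP12 and RRN3 are red in all 5 cocultivated libraries, while most other rows turn pale blue, and cocultivated replicates 1 and 5 hold the deepest blues.

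The map of values by library shows rows that differ little between the groups, with the deepest reds in NOP10 and RRP12. The plot of changes with their errors gives the same 32 genes on the log2 scale. Scaling by library totals moved every gene down, and 2 genes near 0 changed sign by it.

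**Figure D2:**
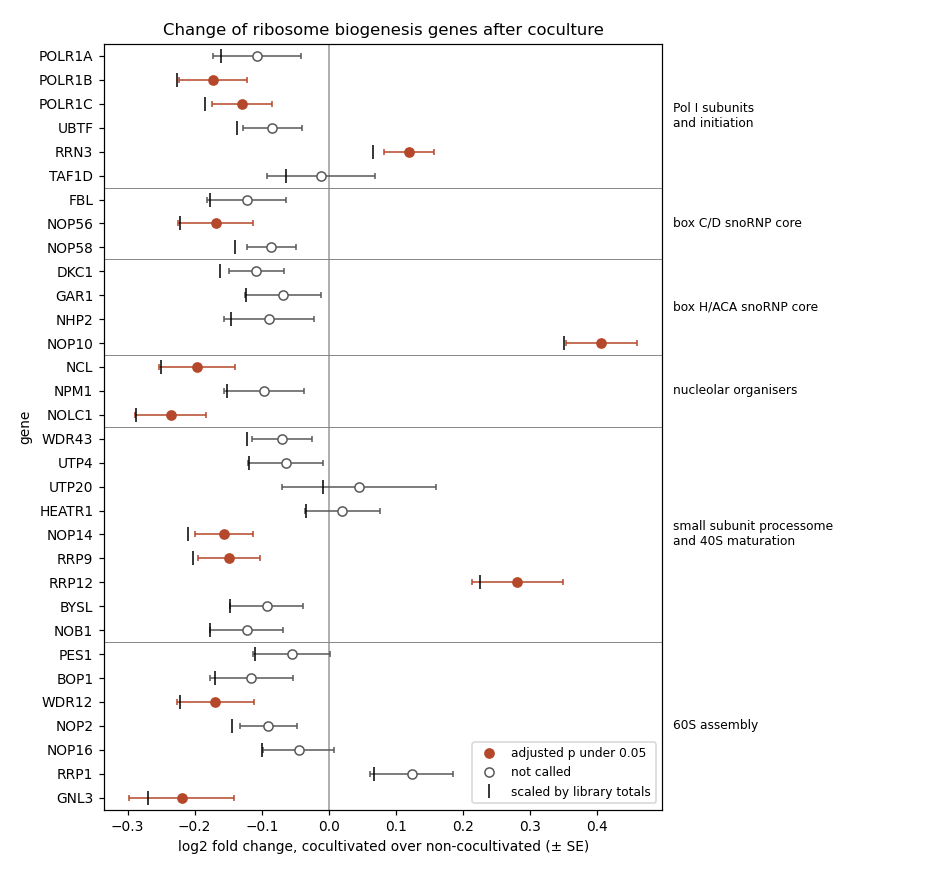
Points are log2 fold changes (cocultivated over non-cocultivated) of the 32 genes with bars of 1 SE (n = 5 and 5); filled points have an edgeR QL adjusted p under 0.05, and black ticks give the value with library totals in place of TMM. Filled points on the left number 9 and on the right 3.

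Promoter sequence offered a view of these genes that does not come from the counts. The palindrome CACGTG, the canonical E-box bound by MYC with its partner MAX, is common near the start sites of ribosome biogenesis genes. RefSeq promoter entries (GRCh38.p14, 250 bases before to 50 after the start) matched 28 of the 32. NOLC1, RRP12, NOP58 and BOP1 had no entry in the table. For 6 genes there were 2 entries, and a gene is counted as holding the letters when either entry does. In GNL3 and GAR1 the letters are in 1 of the 2 entries. The letters CACGTG, which read the same on both strands, occurred in 12 of the 28 (42.9%). They occurred in 12.5% of the 10735 tested genes with an entry and in 7.26% of all 35116 promoters of the table. In further lists of genes, taken up below, the shares were 36.6% for small subunit factors, 31.8% for large subunit factors and 37.5% for Pol III. The letters were thus not particular to the 28. They occurred in 0 of 10 other Pol I genes and 0 of 7 snoRNP assembly factors. Among the 28, POLR1A, POLR1B, POLR1C, UBTF, RRN3 and TAF1D all lacked them. The windows below run from 40 bases before to 25 after the start, 5′ to 3′ on the gene's strand, with CACGTG in capitals. They show 1 gene that rose (NOP10), 3 that fell (RRP9, NOP14 and GNL3) and 1 that was not called (UTP20), with the entry that holds the letters shown for GNL3, and then 2 that fell and lack the letters (NCL and WDR12).
NOP10 (chr15:34343112-34343176, minus strand): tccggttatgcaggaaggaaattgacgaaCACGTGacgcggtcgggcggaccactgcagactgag
RRP9 (chr3:51941880-51941944, minus strand): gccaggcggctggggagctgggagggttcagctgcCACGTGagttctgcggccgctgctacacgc
NOP14 (chr4:2963382-2963446, minus strand): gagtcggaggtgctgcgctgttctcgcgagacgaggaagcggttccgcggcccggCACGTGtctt
GNL3 (chr3:52685992-52686056, plus strand): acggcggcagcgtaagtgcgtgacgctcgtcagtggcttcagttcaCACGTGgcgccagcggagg
UTP20 (chr12:101280065-101280129, plus strand): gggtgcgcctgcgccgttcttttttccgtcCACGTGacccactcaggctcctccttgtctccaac
NCL (chr2:231464460-231464524, minus strand): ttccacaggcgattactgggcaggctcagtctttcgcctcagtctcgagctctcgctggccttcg
WDR12 (chr2:202911649-202911713, minus strand): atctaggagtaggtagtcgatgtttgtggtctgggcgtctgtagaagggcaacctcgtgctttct

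In the 12 promoters the letters mostly sat close to the start. Counted from the start without a position 0, the first base of CACGTG lay at -16 in UTP4, -10 in UTP20 and -5 in RRP9. It lay at 4 in WDR43, 7 in FBL and GNL3, 14 in PES1 and 16 in NOP14. In BYSL, GAR1 and NOP2 it lay farther in, at 29, 32 and 36. NOP10 held 2 copies, at -170 and -11.

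The called genes with an entry were too few to show whether presence of the letters went with direction. The letters were in the promoters of 3 of the 8 genes that fell and have an entry, of 1 of the 2 that rose and of 8 of the 18 not called. The median log2 fold change was -0.08 for the 12 genes with CACGTG and -0.10 for the 16 without. Over all tested genes with an entry, 20.6% of the 1337 with the letters fell and 17.0% rose. Of the 9398 without them, 16.9% fell and 19.8% rose. In that larger set the median log2 fold change was -0.032 with the letters and -0.0062 without them. A match of letters is a description and not a bound site.

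Pol I itself was represented by POLR1A and POLR1B, which form the catalytic core, and by POLR1C, an assembly subunit shared with Pol III. POLR1B measured 102, 97.5, 104, 106 and 104 CPM in non-cocultivated replicates 1 to 5, and 85.3, 90.8, 93.4, 101 and 85.0 CPM in the cocultivated ones. Only cocultivated replicate 4 reached into the range of the other group. POLR1B fell by 0.17 ± 0.05 (log2, SE, n = 5 and 5; edgeR QL adjusted p = 0.0186), or 1.13-fold, and it was called under every alternative tried.

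POLR1C measured 38.2, 42.8, 39.1, 39.3 and 42.0 CPM without coculture and 34.7, 37.4, 36.8, 37.4 and 37.7 CPM with it. The groups did not overlap. POLR1C fell by 0.13 ± 0.04 (edgeR QL adjusted p = 0.0392). It shares its locus with 2 genes on the opposite strand, and the strand setting of the counting is not given in the sources used here. One of the 2, YIPF3, rose by 0.17 ± 0.05 (adjusted p = 0.0209), and the other, XPO5, was not called at -0.08 ± 0.04. The POLR1C call was lost without cocultivated replicate 1, 2, 3 or 4 or non-cocultivated replicate 2, 4 or 5, where its log2 fold change stayed between -0.15 and -0.11 and its adjusted p rose up to 0.0955. It was lost as well with no filter on low counts.

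POLR1A, the largest subunit, was not called, with a log2 fold change of -0.11 ± 0.07 (edgeR QL adjusted p = 0.237). Its non-cocultivated libraries spanned 129 to 173 CPM and enclosed the cocultivated range of 130.5 to 147 CPM.

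The initiation factors did not move as one. RRN3 (TIF-IA), which joins Pol I to the promoter complex and is a target of growth signalling, measured 89.8, 89.3, 93.3, 92.9 and 93.5 CPM in non-cocultivated replicates 1 to 5. In the cocultivated ones it measured 96.4, 102, 105, 101 and 95.1 CPM. All 5 cocultivated libraries lay above all non-cocultivated ones. RRN3 rose by 0.12 ± 0.04 (edgeR QL adjusted p = 0.0255), a 1.09-fold difference.

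With library totals the change of RRN3 was not called, at 0.07 and an adjusted p of 0.191. It was also lost without cocultivated replicate 2, 3 or 4 or non-cocultivated replicate 1, 2 or 3, with an adjusted p of up to 0.0829. With no filter on low counts and on TPM it was lost too, with an adjusted p of up to 0.622. PDXDC1, which overlaps RRN3 on the opposite strand with a similar number of counts, was not called at 0.01 ± 0.04, and 3 RRN3 pseudogenes held 74.8 counts on average beside 4298 for RRN3.

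UBTF, which binds along the ribosomal DNA and keeps it open, was not called at -0.08 ± 0.04 (edgeR QL adjusted p = 0.166), and passed with the batch block at 0.046. TAF1D, a subunit of the promoter selectivity factor SL1, was not called at -0.01 ± 0.08 (adjusted p = 0.932) and went either way across the batches, from -0.33 to 0.15.

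Box C/D snoRNPs place the 2′-O-methyl groups of ribosomal RNA, and the U3 particle among them guides the first cuts. All 3 of their core transcripts had negative changes. NOP56, a scaffold of the particle, measured 265, 293, 253, 254 and 253 CPM without coculture and 257, 228, 234, 238 and 215 CPM with it. Cocultivated replicate 1 lay inside the other group's range and the other 4 below it. NOP56 fell by 0.17 ± 0.06 (edgeR QL adjusted p = 0.0341), a call lost without cocultivated replicate 2, 3, 4 or 5 or non-cocultivated replicate 1 or 2, with an adjusted p of up to 0.091. On log2(TPM + 0.5) it was lost too.

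FBL, the methyltransferase fibrillarin, went from 194 ± 11.4 to 178 ± 13.8 CPM (mean ± SD, n = 5 each). Its log2 fold change of -0.12 ± 0.06 was not called (edgeR QL adjusted p = 0.13; 0.0183 with the batch block). NOP58, the partner of NOP56, went from 211 ± 7.48 to 199 ± 4.20 CPM and was not called either (-0.09 ± 0.04, edgeR QL adjusted p = 0.0944; 0.0364 with the block). Per transcript length, in TPM, FBL was the most abundant of the 3, at 393 ± 19.0 TPM without coculture against 310 ± 30.9 for NOP56 and 180 ± 5.53 for NOP58.

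The box H/ACA core, which converts uridine to pseudouridine and is also part of telomerase, held the largest change of the 32. NOP10, its smallest subunit, measured 108, 114, 109, 116 and 122 CPM in non-cocultivated replicates 1 to 5. In cocultivated replicates 1 to 5 it measured 136, 155, 147, 152 and 165 CPM. The lowest cocultivated library lay above the highest non-cocultivated one. NOP10 rose by 0.41 ± 0.05 (edgeR QL adjusted p = 6.36e-05), or 1.33-fold. Batch by batch its rise was 0.33 to 0.44, and it was called under every alternative tried.

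The 3 partners of NOP10 had negative changes that were not called. DKC1, the pseudouridine synthase dyskerin, went from 253 ± 10.5 to 235 ± 7.21 CPM (-0.11 ± 0.04, edgeR QL adjusted p = 0.0576; 0.0247 with the batch block). NHP2, which contacts the guide RNA, changed by -0.09 ± 0.07 (adjusted p = 0.343). GAR1, which acts on substrate binding and release, changed by -0.07 ± 0.06 (adjusted p = 0.395). For the 4 genes the median was -0.08 and the mean 0.04, opposite in sign because NOP10 alone was positive.

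The ratio of TPM values between subunits shows the same split within each library, free of library scaling. NOP10 over DKC1 was 2.76, 2.76, 2.60, 2.78 and 2.79 in the non-cocultivated libraries and 3.53, 4.01, 3.69, 3.78 and 4.27 in the cocultivated ones. The ratio rose in all 5 batches and the groups did not overlap, with means of 2.74 ± 0.0801 and 3.86 ± 0.291 (SD, n = 5 each). NHP2 over DKC1 averaged 3.23 ± 0.0573 and 3.19 ± 0.36, and GAR1 over DKC1 averaged 0.514 ± 0.0344 and 0.525 ± 0.0289. For both of these the ranges overlapped.

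**Figure D3:**
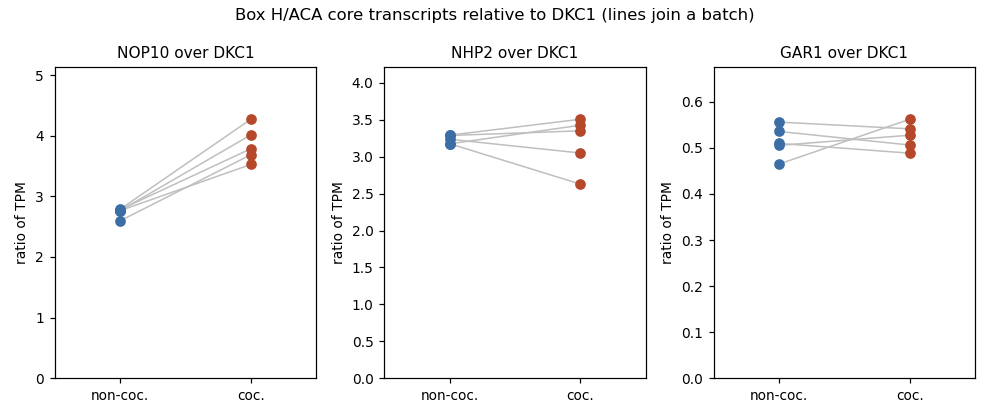
Ratios of TPM values within each library for NOP10, NHP2 and GAR1 over DKC1, 5 non-cocultivated (blue) and 5 cocultivated (red) libraries, with lines joining the libraries of a batch. All 5 lines rise for NOP10 over DKC1, from 2.60 to 2.79 up to 3.53 to 4.27, while the lines of NHP2 and GAR1 go both ways.

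Nucleolin (NCL) and nucleophosmin (NPM1) are among the most abundant proteins of the nucleolus, and NOLC1 (Nopp140) accompanies snoRNPs and Pol I. NOLC1 measured 326, 333, 339, 332 and 335 CPM without coculture and 286, 290.4, 297, 296 and 244 CPM with it. The non-cocultivated libraries lay within a narrow band, and all 5 cocultivated ones below it. NOLC1 fell by 0.24 ± 0.05 (edgeR QL adjusted p = 0.0038), or 1.18-fold, the most negative change of the 32, and it was called under every alternative tried.

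NCL measured 1397, 1361, 1492, 1464 and 1406 CPM without coculture and 1195, 1270.5, 1321, 1323 and 1105 CPM with it. The groups did not overlap. NCL fell by 0.20 ± 0.06 (edgeR QL adjusted p = 0.017), and the adjusted p was 0.0508 without non-cocultivated replicate 3. NPM1 was the most abundant of the 32 per length, at 4902 ± 101 TPM without coculture. Its log2 fold change of -0.10 ± 0.06 was not called (edgeR QL adjusted p = 0.237; 0.0337 with the batch block).

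The small subunit processome folds and cuts the precursor at the side of the 18S RNA. WDR43, UTP4 and HEATR1 belong to the part that binds first, and none was called, with log2 fold changes of -0.07 ± 0.04, -0.06 ± 0.06 and 0.02 ± 0.06. UTP20, which acts in the same assembly, was not called at 0.04 ± 0.11 and had the widest SE of the 32. Its non-cocultivated replicate 1 stood at 155 CPM and the other 4 at 102 to 120.0 CPM. With library totals the values of UTP20 and HEATR1 turned negative, to -0.0088 and -0.034.

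NOP14, another processome factor, measured 192, 205, 204, 201 and 201 CPM without coculture. With coculture it measured 180.2, 182, 186, 189 and 163 CPM, so the groups did not overlap. NOP14 fell by 0.16 ± 0.04 (edgeR QL adjusted p = 0.0142), and it was called under every alternative tried.

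RRP9, the protein that marks the U3 snoRNP, measured 81.5, 90.6, 89.8, 92.5 and 92.9 CPM without coculture and 76.2, 80.5, 82.7, 85.4 and 78.6 CPM with it. The overlap came from non-cocultivated replicate 1, the lowest of its group, and all 5 batches went down. RRP9 fell by 0.15 ± 0.05 (edgeR QL adjusted p = 0.0241), and its call was lost without cocultivated replicate 2 or 5 or any of non-cocultivated replicates 2 to 5, with an adjusted p of up to 0.0647.

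The late factors of the small subunit held the second large rise. RRP12, which serves the export and last steps of the 40S precursor, measured 58.2, 56.9, 58.5, 59.6 and 66.3 CPM without coculture. With coculture it measured 69.0, 69.4, 70.1, 68.5 and 86.8 CPM. All cocultivated libraries lay above all others, and replicate 5 was the highest in both groups. RRP12 rose by 0.28 ± 0.07 (edgeR QL adjusted p = 0.00639), or 1.22-fold, and it was called under every alternative tried.

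BYSL, which rides the 40S precursor together with RRP12, was not called at -0.09 ± 0.05 (edgeR QL adjusted p = 0.217). NOB1, the nuclease that makes the final cut of 18S RNA, was not called at -0.12 ± 0.05 (adjusted p = 0.103; 0.0103 with the batch block). Thus of the 9 genes of the small subunit 2 fell (22.2%), 1 rose (11.1%) and 6 were not called. Among all genes tested 15.8% fell and 17.9% rose.

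For the large subunit, PES1, BOP1 and WDR12 form the PeBoW complex, which is needed to process the precursors of 28S and 5.8S RNA. Their members did not all pass. WDR12 measured 127, 132, 125, 127 and 115 CPM without coculture and 120.2, 109.7, 113, 117 and 96.7 CPM with it. Each batch went down, with an overlap between the groups from non-cocultivated replicate 5. WDR12 fell by 0.17 ± 0.06 (edgeR QL adjusted p = 0.0376), a call lost without cocultivated replicate 2, 3 or 5 or non-cocultivated replicate 1, 2, 3 or 4, with an adjusted p of up to 0.0968.

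BOP1 went from 613 ± 49.3 to 565 ± 32 CPM and was not called (-0.12 ± 0.06, edgeR QL adjusted p = 0.175; 0.015 with the batch block). PES1 was not called at -0.06 ± 0.06 (adjusted p = 0.502). BOP1 was the most abundant of the 3 per length, at 391 ± 22.9 TPM without coculture, while PES1 and WDR12 stood at 133 ± 6.54 and 136 ± 7.23 TPM.

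GNL3 (nucleostemin), a GTPase of the nucleolus that stem and cancer cells express strongly, measured 170.0, 187, 168, 160.5 and 147 CPM without coculture and 167, 142, 145, 141 and 122 CPM with it. Each batch went down, although the groups overlapped. GNL3 fell by 0.22 ± 0.08 (edgeR QL adjusted p = 0.047). The call was lost without cocultivated replicate 2, 3, 4 or 5 or non-cocultivated replicate 1, 2, 3 or 4, where the adjusted p rose up to 0.126, and it was lost on TPM. It passed with the batch block at 0.004. PBRM1, which overlaps GNL3 on the opposite strand, was not called at -0.15 ± 0.07 (adjusted p = 0.148).

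The other 3 genes of the large subunit were not called. NOP2, a methyltransferase of 28S RNA, changed by -0.09 ± 0.04 (edgeR QL adjusted p = 0.128) and NOP16 by -0.05 ± 0.05 (adjusted p = 0.562). RRP1 went from 68.2 ± 4.78 to 74.2 ± 5.91 CPM, was higher in all 5 batches, and was not called at 0.12 ± 0.06 (adjusted p = 0.149; 0.00865 with the batch block).

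**Figure D4:**
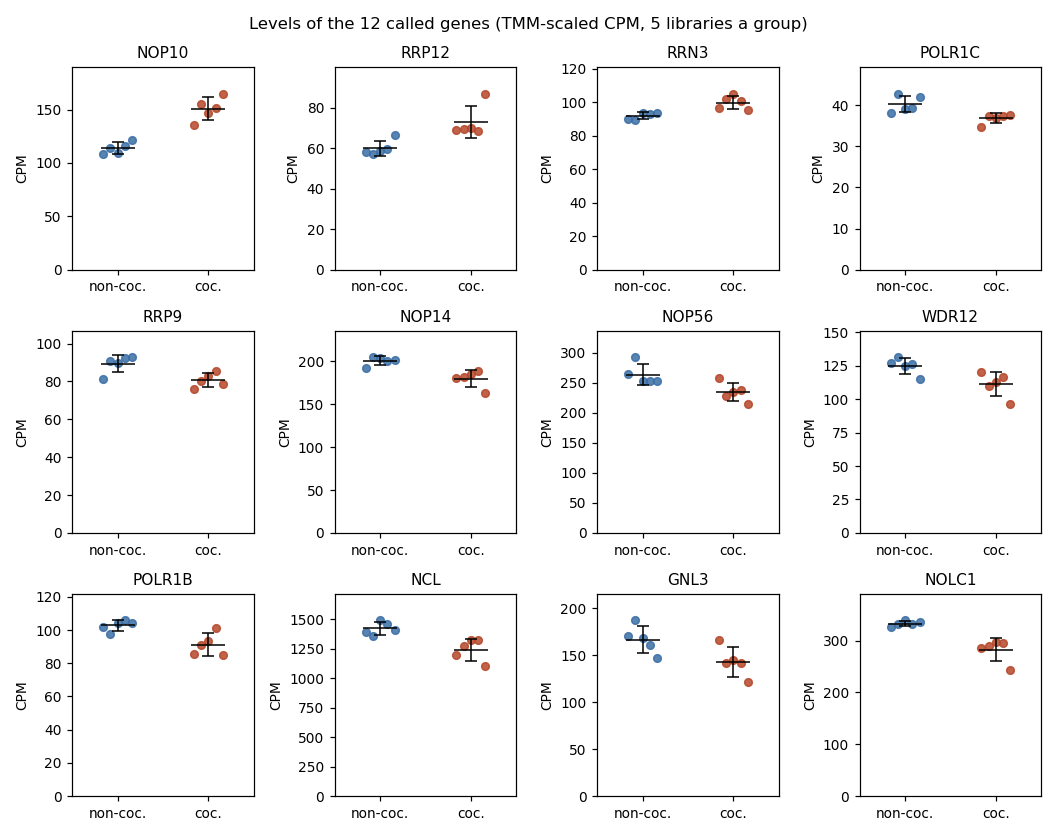
Levels in CPM (TMM-scaled) of the 12 called genes in 5 non-cocultivated (blue) and 5 cocultivated (red) libraries, in the order of replicates from left to right, with the mean and SD; every axis starts at 0. The groups do not overlap for NOP10, RRP12, RRN3, POLR1C, NOP14, NCL and NOLC1.

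The panels of single genes show how small the differences are beside the levels. Among the 32, the groups did not overlap for 4 genes that were lower and 3 that were higher. Over all genes tested these shares were 11.7% lower and 13.7% higher. The 12 called genes were all called in the same direction with the batch block, which added 7 genes that fell and 1 that rose.

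Summed over the 32 genes, the transcripts held 9679 to 10025 TPM in the non-cocultivated libraries and 7932 to 9453 TPM in the cocultivated ones. NPM1 makes up a large part of that sum. The groups did not overlap, and cocultivated replicate 5 was the lowest. On the TPM scale the median log2 change over all genes tested was itself -0.08 (pseudocount 0.1), beside -0.17 for the 32.

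The mix of transcripts per gene gave no call. The tables' length column is a mean over a gene's transcripts weighted by abundance, so it moves where the mix moves. By limma on its log2, none of the 31 genes tested was called at an adjusted p under 0.05, beside 0.299% of 11048 genes over all. The smallest adjusted p was 0.253, and 4 of the 31 had an unadjusted p under 0.05. The differences in log2 length lay between -0.05 and 0.02.

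The wider machinery was read from lists of further genes. Of 15 other Pol I subunits and initiation factors, 3 fell and none rose, beside 15.8% and 17.9% of all genes, with a median of -0.02. The share of the 15 that fell was thus near that of all genes. The 3 were POLR2H, a subunit shared by the nuclear polymerases (80.5 ± 2.74 to 69.8 ± 4.82 CPM, log2 -0.21 ± 0.05, edgeR QL adjusted p = 0.00585), TAF1C of the selectivity factor SL1 (-0.27 ± 0.08, adjusted p = 0.0148) and the Pol I subunit CD3EAP (-0.22 ± 0.07, adjusted p = 0.0353). Without cocultivated replicate 1 the median of the 15 turned positive, to 0.02.

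Of 46 further small subunit factors, 9 fell (19.6%) and 2 rose (4.35%), with a median of -0.05. UTP25 rose by 0.17 ± 0.04 (edgeR QL adjusted p = 0.00338) but was not called with library totals, and IMP3, a U3 protein, fell by 0.23 ± 0.05 (adjusted p = 0.00362). With the batch block 15 fell and 2 rose, and with library totals 19 fell and 1 rose. Of all genes, 22.2% fell and 22.2% rose with the block, and 22.7% fell and 14.1% rose with library totals. Without non-cocultivated replicate 2, 3 or 4 only 5 of the 46 fell, beside 12.9% to 13.2% of all genes. Of 52 further large subunit factors, 12 fell (23.1%) and 2 rose (3.85%), with a median of -0.08. Both top genes of that list fell, the GTPase GNL2 by 0.21 ± 0.04 (edgeR QL adjusted p = 0.00122) and PPAN by 0.19 ± 0.04 (adjusted p = 0.00147). The block raised the fallen to 22 and the risen to 5, and library totals gave 24 and 1, beside the same shares of all genes as above.

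All 12 snoRNP assembly factors were negative, beside 51.6% of all genes tested, with a median of -0.08. Of the 12, 2 fell (16.7%), a share near the 15.8% of all genes, and none rose. The 2 were RUVBL1, an ATPase of the assembly machinery (153 ± 8.15 to 129.9 ± 9.31 CPM, log2 -0.23 ± 0.05, edgeR QL adjusted p = 0.00521), and TCOF1 (treacle), which links Pol I to snoRNPs (-0.20 ± 0.07, adjusted p = 0.034). With the batch block 7 of the 12 fell, beside 22.2% of all genes, and with library totals 7 fell, beside 22.7%. Only 1 of the 12 fell without cocultivated replicate 2 or without non-cocultivated replicate 2, 3 or 4. None of 14 genes of the RNA exosome, which trims the precursors, was called by edgeR QL, and limma-voom and DESeq2 called none either. At an unadjusted p under 0.05 there were 6 of the 14, beside 6731 of the 15690 genes tested. With the batch block 5 of the 14 fell and 2 rose, beside 22.2% and 22.2% of all genes. With library totals 6 of the 14 fell, beside 22.7%, and on TPM 4 fell, beside 18.8% to 18.9%. With 1 library left out 0 to 4 fell, the 4 without non-cocultivated replicate 1, and at most 1 rose. Its lead genes EXOSC1 and EXOSC9 stood at 0.15 ± 0.06 (edgeR QL adjusted p = 0.0561) and -0.11 ± 0.04 (adjusted p = 0.0578).

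Pol III makes the 5S RNA of the large subunit. Of 22 genes of Pol III and its factors, 5 fell (22.7%) and 1 rose (4.55%), beside 15.8% and 17.9% of all genes. The median was -0.04. GTF3C4 of the factor TFIIIC fell by 0.27 ± 0.04 (edgeR QL adjusted p = 4.39e-04) and the initiation factor BRF1 by 0.18 ± 0.04 (adjusted p = 0.00177). For both, all cocultivated libraries lay below all others. The one that rose, POLR3GL (0.15 ± 0.05, adjusted p = 0.0423; named after its value was seen), encodes the alternative form of a Pol III subunit, and it was not called with library totals, nor without cocultivated replicate 2, 3 or 4 or non-cocultivated replicate 2, 3, 4 or 5.

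**Figure D5:**
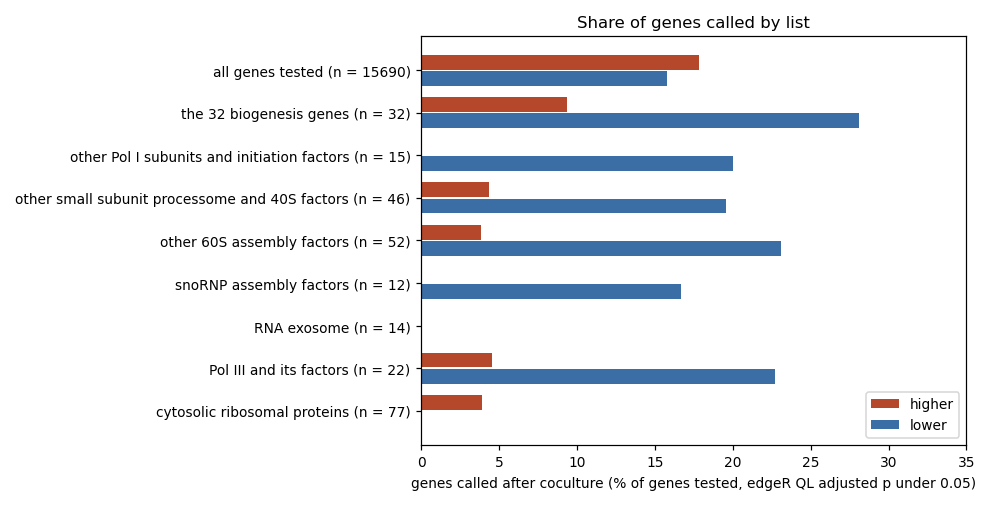
Bars give the share of tested genes called higher (red) or lower (blue) after coculture, in percent, for all genes tested, the 32 genes and 7 further lists, with the number of genes tested in parentheses. Lower bars exceed higher ones for the lists of ribosome assembly and of Pol I and Pol III, while the cytosolic ribosomal proteins have a higher bar only and the RNA exosome has none.

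The plot of called shares sets these lists beside the share of all genes. Of 77 genes for cytosolic ribosomal proteins, 74 had positive changes, beside 7589 of the 15690 genes tested, and the median was 0.08. By edgeR QL 3 of the 77 rose (3.90%) and none fell, beside 17.9% and 15.8% of all genes. The 3 were RPS29 (216 ± 18.3 to 265 ± 36.8 CPM, log2 0.29 ± 0.09, edgeR QL adjusted p = 0.0217), RPS3A (0.16 ± 0.05, adjusted p = 0.0376) and RPL10 (0.17 ± 0.06, adjusted p = 0.0498). With the batch block 19 of the 77 rose and none fell, beside 22.2% of all genes that rose and 22.2% that fell. Without cocultivated replicate 1, 29 rose, beside 19.2% of all genes. Without non-cocultivated replicate 2, 3 or 4 none was called, and without any other single library 1 or 2 rose. This direction depended on scaling, since the median of the 77 was 0.02 with library totals, where 1 rose and 1 fell, and -0.0060 on log2(TPM + 0.1), where 44 were negative.

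Among 22 regulators of ribosomal RNA synthesis, which push it both ways, 5 rose (22.7%) and 6 fell (27.3%), beside 17.9% and 15.8% of all genes. Their median was -0.05 and their mean 0.06. MYC, an activator of all 3 RNA polymerases in this pathway, measured 448, 429, 395, 417 and 434 CPM without coculture and 367, 366, 345, 352 and 362 CPM with it. The groups did not overlap. MYC fell by 0.24 ± 0.04 (edgeR QL adjusted p = 6.86e-04). By p it ranked 6 in this list, after SESN2, CDKN2A, EIF4EBP1 (0.59 ± 0.07), RPTOR (-0.34 ± 0.04) and SIRT7 (0.41 ± 0.06). SESN2, a stress-induced inhibitor of mTOR complex 1, rose from 20.3 ± 0.794 to 60.7 ± 10.9 CPM (1.58 ± 0.10, adjusted p = 1.64e-07). CDKN2A, whose ARF product restrains ribosomal RNA processing, fell from 224 ± 6.79 to 156 ± 9.36 CPM (-0.52 ± 0.05, adjusted p = 2.35e-06).

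Ribosomal RNA itself was sparse in these libraries, which were made with an mRNA kit. The 3 copies of 5.8S RNA that were tested had identical values in every library. Each copy held 82.0 to 221 expected counts without coculture and 83.2 to 633 with it. The change of 1.03 ± 0.50 was not called (edgeR QL adjusted p = 0.135), and the high value was that of cocultivated replicate 4.

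Reads of other RNAs inside or across these genes were looked for. In GENCODE v29, 8 of the 32 genes hold 32 genes for small nucleolar or Cajal body RNAs, and none of those had more than 2.16 counts in a library. For 7 of the 32 a gene on the opposite strand held at least 10% as many counts as the member. NPM1 has 46 pseudogenes with 251 counts in sum on average, beside 120279 for NPM1.

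Markers of other cells were compared between the groups as well. The 10 adipocyte markers summed to 49.3 to 75.0 CPM of the library total without coculture and 155 to 283 CPM with it. FABP4 and PLIN4 carried that sum, and 6 of the 10 stayed under 1 CPM in every library. Among those 6, ADIPOQ, LEP, CIDEA and LPL were at 0 to 0.0435 CPM, GPD1 at 0.0215 to 0.0993 CPM and PLIN1 at 0.108 to 0.392 CPM. LIPE was higher with coculture, at 1.79 to 2.21 CPM against 1.05 to 1.48 CPM. CIDEC was at 1.38 to 3.22 CPM with coculture and 3.04 to 6.21 CPM without it, and these ranges overlapped. Stroma markers summed to 9.70 to 11.4 CPM without coculture and 3.53 to 5.33 CPM with it. Blood markers went from a sum of 32.9 to 39.4 CPM to one of 42.5 to 49.96 CPM, nearly all of it CD68. The endothelial sum went from 31.6 to 43.6 CPM to 18.7 to 25.9 CPM. KDR carried that fall, at 21.7 to 31.4 CPM without coculture and 6.02 to 13.8 CPM with it. TEK was higher with coculture, at 1.38 to 1.51 CPM against 0.596 to 0.958 CPM. PECAM1 overlapped between the groups, and VWF and CDH5 were at most 0.119 CPM. The part of RNA from other cells in the changes of the 32 genes was not tested.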

How the data were processed

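Stranded mRNA libraries from 500 ng of RNA were made by the submitters, per the labels' protocols. The submitters' processing notes list RSEM 1.3.3, Bowtie2 2.4.4 and bcl2fastq; the sources used here do not give the build, annotation or strand setting. The deposited tables hold, per the file headers, length, expected count and TPM for each gene. Of the deposited non-zero expected counts 59.2% were whole within 0.005. Here they were rounded and fitted in R 4.3.3 with edgeR 4.0.16 (filterByExpr, minimum count 10 and total 15; TMM; quasi-likelihood F test), with SE as the absolute log2 fold change over the square root of F. All 32 genes passed the filter. Deposited TPM values served for levels between genes and for limma 3.58.1 with pseudocounts of 0.5 and 0.1; lengths were tested by limma where TPM was at least 1 in every library. DESeq2 1.42.0, limma-voom, library totals, no filter, a batch block and each library left out were alternatives; leaving out batch 1 was added after seeing the data. The fit was also run, after the main fit, on counts simulated from its means and dispersions with 200 changed genes. The outcome of that run is not given here.

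A count of 0 allows 3 counts, or 0.0582 to 0.0768 CPM; such limits cover counting error only. The batch numbers pair the libraries, as a label for a batch that both groups share; deviations from group means correlated across genes at 0.329, -0.019, 0.073, 0.104 and 0.281 in batches 1 to 5. The 32 genes, the lists and the tests were chosen with earlier results of these data known. Of each list the 2 genes with the smallest p are named, plus MYC and the regulators that ranked above it by p. Where a count of at most 5 is spelled out, further genes are named after their values were seen.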

Additional observations from a re-analysis of the deposited data

Results flagged for a closer look

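For each gene of the 32 and for 7 ratios or sums of TPM, the highest and lowest library of a group of 5 was set against its nearest neighbour by Dixon's ratio (critical value 0.71). Of 78 groups 9 stood out. Chance gives about 1 in 20 for a single group, but the 78 share the same 10 libraries and are not independent. The count of 9 can therefore not be read as an excess. Non-cocultivated replicate 1 was far below its group for NPM1 (2531 CPM, next 2783), WDR43 (174 CPM, next 192) and RRP9 (81.5 CPM, next 89.8). Cocultivated replicate 1 was far below for BOP1 (508 CPM, next 574). These 4 values come from the pair of libraries of batch 1. Replicate 5 was far above its group for RRP12 both without coculture (66.3 CPM, next 59.6) and with it (86.8 CPM, next 70.1), so the difference between the groups was present in that batch too. Cocultivated replicate 5 was far below for NOLC1 (244 CPM, next 286), and NOLC1 was still called without it. The TPM ratio of NOP10 over DKC1 was low in non-cocultivated replicate 3 (2.60, next 2.76), and that of BOP1 over PES1 high in cocultivated replicate 3 (3.03, next 2.81).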

How the results depend on the processing

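Over 18 alternatives, POLR1B, NOP10, NOLC1, NOP14 and RRP12 kept direction and call in each. The number of the 32 genes that fell was 9, and it was 16 with the batch as a replicate block, 18 with library totals, and 20 on log2(TPM + 0.1) and on log2(TPM + 0.5); with 1 library left out it was 4 to 10, and the number that rose 2 to 4. TPM also moved the balance over all genes, to 1733 higher and 2956 lower (pseudocount 0.1) and to 1732 and 2961 (pseudocount 0.5). Genes with a length call went from 33 to 16 with the block and to 7 to 19 with 1 library left out. Changes of sign came from 3 genes that were never called. UTP20 went from 0.04 to -0.0088 with library totals and -0.015 and -0.014 on TPM, HEATR1 from 0.02 to -0.034, -0.052 and -0.051. With 1 library left out UTP20 ran from -0.0084 to 0.16, HEATR1 from -0.0072 to 0.051 and TAF1D from -0.084 to 0.036. Of 320 gene results with 1 library left out, 261 kept direction and call, 41 lost the call, 6 gained it and 12 changed sign; of 256 under other alternatives these were 195, 8, 47 and 6. The causes were not tested. The 20 genes not called had values of -0.12 to 0.12; 8 of them were called with the block, so a missed threshold does not show that they did not differ.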
